A study of Danio rerio with 6 samples.

Results

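The genes described here are the Twist, Snail and Zeb transcription factors of the zebrafish: twist1a, twist1b, twist2, twist3, snai1a, snai1b, snai2, zeb1b, zeb2a and zeb2b. They were chosen by name, and all 10 have a row among the 27126 gene names of the count table. RNA of 2 melanoma cell lines was sequenced, with 3 libraries of ZMEL1 and 3 of ZMELR1. ZMEL1 was grown from a skin melanoma of 1 fish that carried oncogenic human BRAF under the melanocyte promoter of mitfa, was homozygous mutant for p53 and mitfa, and had melanocytes rescued by an mitfa minigene with a GFP marker. ZMELR1 is the culture that regrew from ZMEL1 under a BRAF inhibitor, so both lines share these alleles and this single tumor. At RNA isolation ZMEL1 was kept in DMSO, while ZMELR1 stayed in 1 μM of PLX4032 (vemurafenib), both at 28.5 °C with 10% serum. The history of selection and the drug in the medium therefore cannot be told apart. ZMELR1 comes from 1 derivation, so the p-values below measure spread between libraries of these 2 lines. Spread between separate resistant derivations was not measured.

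All of these factors bind E-box sequences in DNA, and most are known as repressors. Twist proteins are basic helix-loop-helix factors that pair with E proteins, Snail proteins carry zinc fingers and a short repressor domain at their start, and Zeb proteins carry zinc finger clusters around a homeodomain. They switch off cadherin and junction genes when cells leave an epithelium, and several of them act as the neural crest, the embryonic source of pigment cells, detaches and migrates. In human melanoma, ZEB2 and SNAI2 are known from pigmented, MITF-positive cells, while ZEB1 and TWIST1 are known from dedifferentiated cells. The question asked of these libraries was which members differed between the parental and the resistant line.

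Levels are given in CPM, the counts of a gene per 1000000 counted reads after TMM scaling of the library sizes, and were compared between lines only, since no transcript lengths were used here. The total count of a library lay between 42591832 and 83741911, lowest in ZMELR1 replicate 3. Genes passed the filter on low counts when enough libraries held about 10 counts or more, and the words rose and fell mark a difference of ZMELR1 from ZMEL1 at an edgeR adjusted p under 0.05 over the 16589 genes that passed. The same replicate number in both lines marked libraries that deviated together, so a second value is given "with the block", where the replicate number entered the edgeR model as a block. ZMELR1 replicate 3 had the fewest counts and the lowest cell division transcripts, and member values that it moved by over 1.5 times or whose call it changed are also given without it. The melanocyte regulators mitfa and sox10 were expressed in every library, at 429 to 948 and 384 to 607 CPM, and the pigment genes dct, tyr, tyrp1b and pmela at 1.13 to 28.5 CPM. Some defining markers of other cell types were at or near 0, with at most 0 counts for myog (muscle), 1 and 2 for cdh5 and tie1 (endothelium) and 3 for mpeg1 (macrophages). Others were read, with up to 89.2 CPM for postnb and 17.6 for dcn (fibroblasts), 16.4 for cdh1 and 9.36 for krt5 (keratinocytes), 2.84 for spi1b (leukocytes) and 1.27 for fli1a (endothelium).

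The Zeb gene zeb1b rose and twist2 fell in ZMELR1, while the remaining 7 of the 9 members tested did not pass. The share of all genes tested that passed was 6.29%, with 3.62% higher and 2.68% lower, and 5.90% (3.39% higher) with edgeR's older fit. With the block, zeb1b, zeb2b, snai1a, twist1b and twist3 rose and twist2 fell, 6 of 9 against 24.9% of all genes tested (12.9% higher and 12.0% lower). The ranges of the lines did not overlap for 6 of the 10 members. These were twist1a, snai1a, zeb1b, zeb2a and zeb2b, higher in every ZMELR1 library, and twist2, lower in every one. Over all genes tested, ranges did not overlap for 31.4%, with 17.0% higher and 14.5% lower. Of the members, snai1b was removed by the filter. The gene twist2 passed it through the ZMEL1 libraries alone and zeb2b through the ZMELR1 libraries alone, so a count over the tested members is a description.

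**Figure D1:**
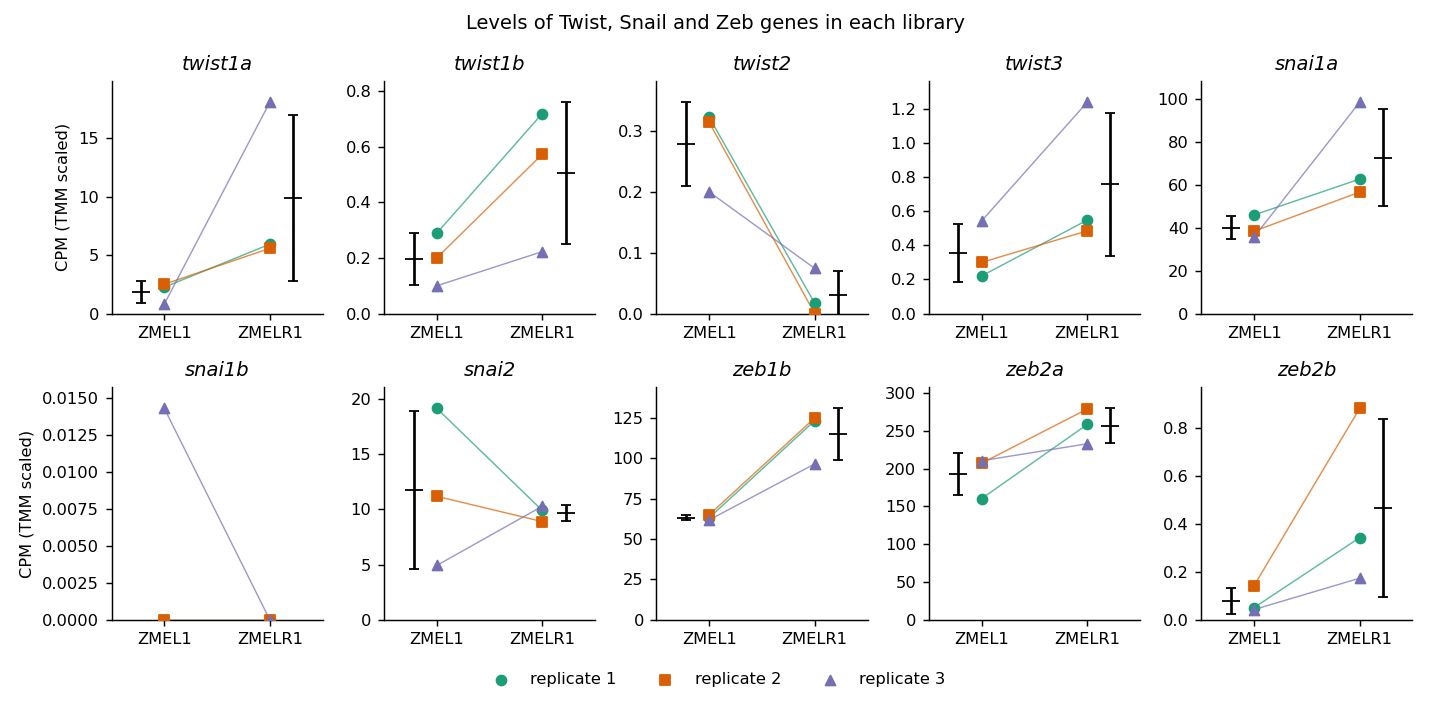
CPM (vertical axes, linear from 0, a scale of its own in each panel) of the 10 genes in the 3 ZMEL1 and 3 ZMELR1 libraries. Colored points are libraries, lines join libraries of the same replicate number, and black marks are the mean with 1 SD on either side, clipped at 0 and left out for snai1b. The zeb1b points of ZMEL1 lie between 61.9 and 65.0 CPM, and ZMELR1 replicate 3 is the highest library for twist1a, twist3 and snai1a.

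Among the Zeb genes, zeb1b (also called kheper) encodes one of the fish counterparts of ZEB1, a repressor of E-cadherin and of microRNAs that hold cells in the epithelial state. Its level was 63.2, 65.0 and 61.9 CPM in ZMEL1 replicates 1 to 3, against 123, 125 and 96.6 CPM in ZMELR1 replicates 1 to 3. The ZMEL1 libraries were nearly level, and the lowest ZMELR1 library lay well above all of them. The log2 fold change was 0.86 (SE 0.159, edgeR's adjusted p = 0.0251, and 0.00867 with the block), which is 1.82 times, where SE is the standard error. Between libraries of the same number the ratio of CPM was 1.95, 1.92 and 1.56. The direction held with each library left out in turn, with a log2 fold change of 0.78 to 0.97. The call held only without ZMELR1 replicate 3 (edgeR's adjusted p = 0.0143) and was lost without the others (0.102, 0.0909 and 0.0898 without ZMEL1 replicates 1 to 3, and 0.103 and 0.0871 without ZMELR1 replicates 1 and 2).

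The other ZEB1 copy, zeb1a, is not among the 10 genes and did not share this difference at the level of a call. It stood at 9.25 ± 4.56 CPM (SD, n = 3) in ZMEL1 and 10.6 ± 2.20 CPM (SD, n = 3) in ZMELR1, with overlapping ranges. Its log2 fold change was 0.19 (SE 0.415, edgeR's adjusted p = 0.805, and 0.384 with the block), and it became -0.16 without ZMEL1 replicate 1. Whether zeb1a and zeb1b differ in their response was not tested.

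The gene zeb2a (sip1a) encodes a counterpart of ZEB2, which in the mouse is needed for melanocytes to differentiate. It gave 160, 207 and 210 CPM in ZMEL1 replicates 1 to 3, against 258, 279 and 233 CPM in ZMELR1 replicates 1 to 3. All ZMELR1 libraries lay above all ZMEL1 libraries, by little for replicate 3. Its log2 fold change of 0.41 (SE 0.172) did not pass (edgeR's adjusted p = 0.196, and 0.0724 with the block). Between libraries of the same number the ratio of CPM was 1.61, 1.35 and 1.11.

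The second copy, zeb2b (sip1b), was close to silent. It had 3, 10 and 3 counts in ZMEL1 replicates 1 to 3, against 20, 80 and 7 counts in ZMELR1 replicates 1 to 3. In CPM these are 0.0510, 0.143 and 0.0429 against 0.342, 0.881 and 0.173, so the groups did not overlap but the highest ZMEL1 library came near the lowest ZMELR1 library. Replicate 2 was the highest library within each line. Its log2 fold change was 2.61 (SE 0.728, edgeR's adjusted p = 0.0839, and 0.00931 with the block), and the ratio of CPM was 6.71, 6.16 and 4.04 between libraries of the same number. Without ZMELR1 replicate 3 the gene rose (edgeR's adjusted p = 0.0439). It did not pass without any other single library (edgeR's adjusted p = 0.123 to 0.241) or without replicate 3 of both lines (0.102). Without ZMELR1 replicate 2, its highest library, the log2 fold change was 1.69. How reads shared by the copies of a family were counted is not stated, so low counts of zeb2b beside zeb2a, and of twist1b beside twist1a, are uncertain.

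**Figure D2:**
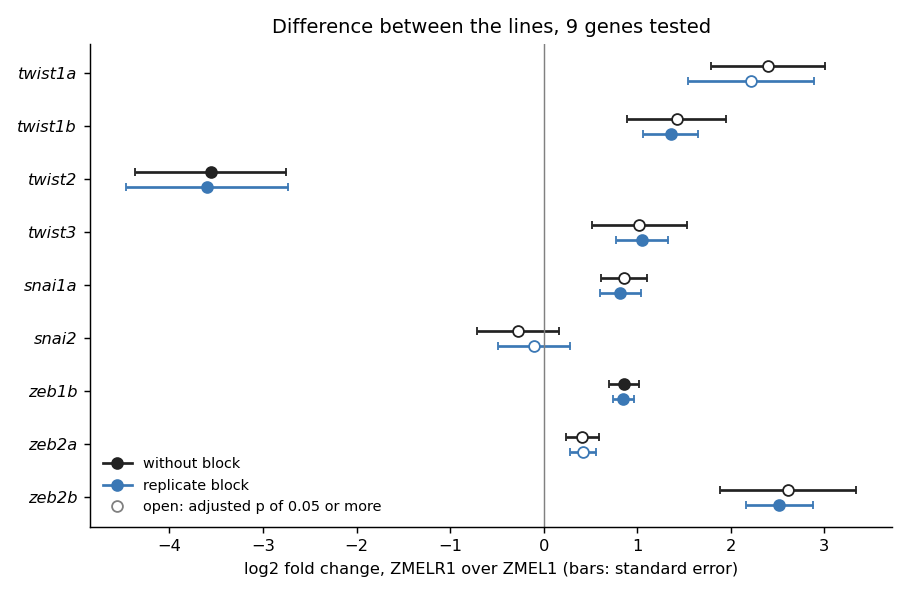
Log2 fold change of ZMELR1 over ZMEL1 (horizontal axis) for the 9 genes tested, without the block in black and with the replicate block in blue, and bars of 1 standard error. Filled points have an edgeR adjusted p under 0.05. Without the block zeb1b (0.86) and twist2 (-3.56) are filled, and with it twist1b, twist3, snai1a and zeb2b are filled as well.

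Of the Snail genes, snai1a encodes a zinc finger repressor that in the zebrafish drives cell movements of gastrulation. Its level was 46.1, 38.5 and 35.8 CPM in ZMEL1 replicates 1 to 3, against 62.8, 56.7 and 98.7 CPM in ZMELR1 replicates 1 to 3. The lines did not overlap, and replicate 3 was lowest in ZMEL1 and highest in ZMELR1. The log2 fold change was 0.86 (SE 0.242, edgeR's adjusted p = 0.0854, and 0.0453 with the block). The ratio of CPM was 1.36, 1.47 and 2.76 between libraries of the same number. Without ZMELR1 replicate 3 the log2 fold change was 0.58 (edgeR's adjusted p = 0.101), and without replicate 3 of both lines it was 0.46 (edgeR's adjusted p = 0.180).

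The copy snai1b was practically unread: 1 count in ZMEL1 replicate 3 and 0 counts in the other 5 libraries. A count of 0 allows up to 3 counts per library, which is 0.0330 to 0.0742 CPM here, and such floors cover counting error only. It was not tested, and no difference was detectable at this depth.

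The gene snai2 (slug) encodes the Snail factor best known from the neural crest. It gave 19.1, 11.2 and 4.92 CPM in ZMEL1 replicates 1 to 3, against 9.89, 8.88 and 10.3 CPM in ZMELR1 replicates 1 to 3. All ZMELR1 values fell inside the range of ZMEL1, whose libraries spread far more (SD 7.12 against 0.717 CPM, n = 3 each). Its log2 fold change was -0.28 (SE 0.441, edgeR's adjusted p = 0.734, and 0.867 with the block). The pairs disagreed in direction, with CPM ratios of 0.517, 0.795 and 2.09 for replicates 1, 2 and 3, and the fold change turned to 0.26 without ZMEL1 replicate 1 (edgeR's adjusted p = 0.761) and was -0.73 without replicate 3 of both lines (edgeR's adjusted p = 0.216).

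Among the Twist genes, twist1a is a TWIST1 counterpart that in the zebrafish acts in the head neural crest that forms cartilage and bone. It gave 2.26, 2.51 and 0.814 CPM in ZMEL1 replicates 1 to 3, against 5.94, 5.58 and 18.1 CPM in ZMELR1 replicates 1 to 3. Every ZMELR1 library lay above every ZMEL1 library, but the size of the difference came to a large part from replicate 3, which was lowest in ZMEL1 and highest in ZMELR1. The ratio of CPM was 2.63, 2.22 and 22.2 in the pairs of replicates 1, 2 and 3. The log2 fold change of 2.40 (SE 0.610) did not pass with edgeR (adjusted p = 0.0658, and 0.0632 with the block), while DESeq2 called it (adjusted p = 0.00117). It was 1.63 without ZMELR1 replicate 3 (edgeR's adjusted p = 0.0859) and 1.23 without replicate 3 of both lines, where the gene rose (edgeR's adjusted p = 0.0492).

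The copy twist1b was low, with 17, 14 and 7 counts in ZMEL1 replicates 1 to 3, against 42, 52 and 9 counts in ZMELR1 replicates 1 to 3. Replicate 3 was the lowest library in both lines, at 0.10 and 0.223 CPM, and the ranges overlapped. Within pairs the CPM ratio was 2.49, 2.86 and 2.23, a narrow range. Its log2 fold change was 1.42 (SE 0.527, edgeR's adjusted p = 0.158), and the gene rose with the block (edgeR's adjusted p = 0.0278). In replicate 3, then, twist1a was at its highest and twist1b at its lowest within ZMELR1.

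The gene twist2, whose older name is dermo1, is known in mammals from the dermis. It was the member that fell, with 19, 22 and 14 counts in ZMEL1 replicates 1 to 3, against 1, 0 and 3 counts in ZMELR1 replicates 1 to 3. In CPM the ZMEL1 libraries lay at 0.323, 0.314 and 0.200, and the highest ZMELR1 library at 0.0742. Summed over libraries, the 55 counts of ZMEL1 against 4 of ZMELR1 are 13.1 times as many per scaled total, with a 95% interval of the counting error of 4.84 to 49.8. That interval leaves out the spread between libraries, so it is no test of the lines. The gene also passed the filter through the ZMEL1 libraries alone. The fitted log2 fold change of -3.56 (SE 0.807) rests on counts near 0 (edgeR's adjusted p = 0.0355, and 0.0264 with the block). The call did not hold without any of the ZMEL1 libraries, in order of number, or ZMELR1 replicate 1 or 2 (edgeR's adjusted p = 0.109, 0.10, 0.0633, 0.142 and 0.0868) and held without ZMELR1 replicate 3 (0.0184), where the fitted value was -5.03. It was also lost with limma-voom (adjusted p = 0.0572) and with edgeR's older fit (0.0545).

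The gene twist3, a further copy kept in fish, had 13, 21 and 38 counts in ZMEL1 replicates 1 to 3, against 32, 44 and 50 counts in ZMELR1 replicates 1 to 3. Replicate 3 was the highest library in both lines, at 0.543 and 1.24 CPM, and the ranges overlapped by a hair, since ZMELR1 replicate 2 stood at 0.484 CPM. The log2 fold change was 1.02 (SE 0.507, edgeR's adjusted p = 0.261), and the gene rose with the block (edgeR's adjusted p = 0.0442). Without ZMELR1 replicate 3 the value was 0.52 (edgeR's adjusted p = 0.514), and without replicate 3 of both lines 0.93 (edgeR's adjusted p = 0.166). The genes twist1a, twist1b and twist3 had a CPM ratio above 1 in all 3 pairs, with the lowest at 1.61 for twist3 in replicate 2. They were grouped here by their positive fold change, so this is a description. For twist2 the ratio was 0.0530, 0 and 0.371 in replicates 1 to 3. RefSeq lists Twist1a as a synonym of twist1b and twist2 as a synonym of twist3, and symbols are used here as the table gives them.

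**Figure D3:**
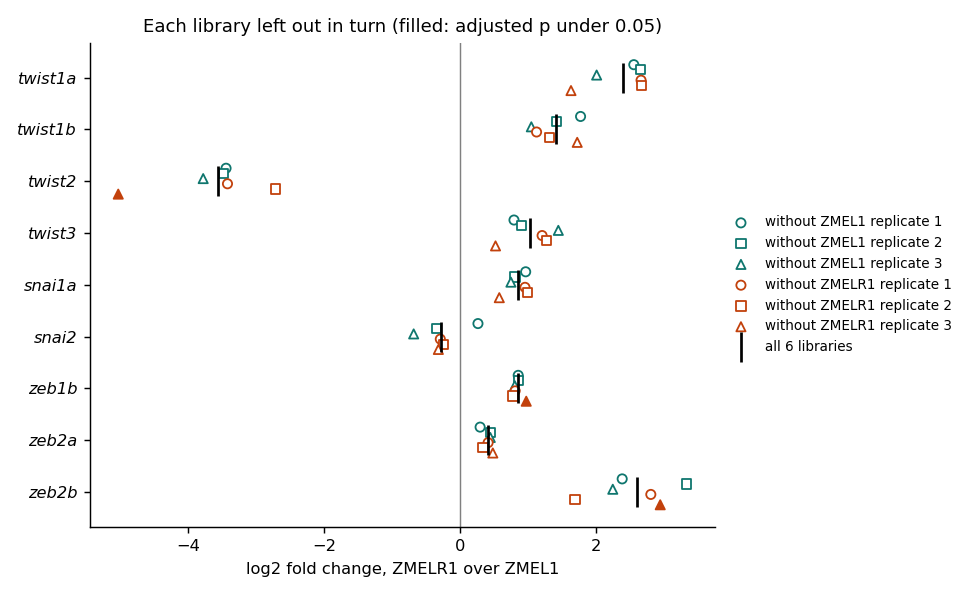
Log2 fold change of ZMELR1 over ZMEL1 (horizontal axis) for the 9 genes tested under omission of 1 library at a time, with the value from all 6 libraries as a black bar. Filled points have an edgeR adjusted p under 0.05. Filled points occur only without ZMELR1 replicate 3, for zeb1b, zeb2b and twist2, and snai2 is the gene whose points lie on both sides of 0.

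Without ZMELR1 replicate 3, zeb1b and zeb2b rose and twist2 fell, against 6.79% of all genes tested there (3.90% higher and 2.88% lower). Without replicate 3 of both lines, zeb1b and twist1a rose and twist2 fell, against 5.93% (2.93% higher). As each of the other 5 libraries was left out, 0 members passed edgeR's threshold, and calls over the whole table became fewer as well. Higher genes numbered 172, 185 and 238 without ZMEL1 replicates 1 to 3, against 600 with all libraries. They numbered 193 and 326 without ZMELR1 replicates 1 and 2. Lower genes numbered 165, 185, 279, 113 and 183 in the same order, against 444. Calls of single genes lost in these settings stand beside that drop. With all libraries 7 of the 9 members had an unadjusted p under 0.05, against 24.3% of all genes tested. DESeq2 called 5 members (4 higher and 1 lower, against 14.2% of all genes it tested, 7.63% higher and 6.61% lower). The higher ones were zeb1b, twist1a, zeb2b and snai1a (DESeq2's adjusted p = 0.000232, 0.00117, 0.0270 and 0.0361). The lower one was twist2 (DESeq2's adjusted p = 0.0112). ZMELR1 replicate 3 also had the lowest level of cell division transcripts. The summed level of 24 such genes was 2940 to 3759 CPM in ZMEL1, and 2251, 2687 and 867 CPM in ZMELR1 replicates 1 to 3. The median log2 fold change of these 24 genes was -0.79, and 0 of them had a positive one, against 51.8% of all genes tested. Of these 24 genes edgeR called 0, DESeq2 called 4 and 6 had an unadjusted p under 0.05. With the block 8 of them were lower, against 12.0% of all genes tested. Their part in the high twist1a, twist3 and snai1a values of that library was not tested.

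The balance between members was read as log2 ratios of counts within a library, from which depth and scaling cancel. Summed Twist counts over snai2 were -2.63, -1.74 and -1.56 in ZMEL1 replicates 1 to 3, against -0.45, -0.42 and 0.93 in ZMELR1 replicates 1 to 3. The lines did not overlap, and the mean moved by 2.0 from -1.98 ± 0.568 (SD, n = 3) to 0.02 ± 0.790 (SD, n = 3). Of the Twist genes twist1a had the most counts in every library, from 49.1% of the Twist counts in ZMEL1 replicate 3 to 92.2% in ZMELR1 replicate 3. An exact two-sided permutation test over 3 against 3 libraries cannot go below p = 0.1, the value reached here (0.133 adjusted over the 4 ratios computed).

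The ratio of zeb1b to zeb2a and zeb2b moved less. It was -1.34, -1.67 and -1.77 on the log2 scale in ZMEL1 replicates 1 to 3, against -1.07, -1.16 and -1.27 in ZMELR1 replicates 1 to 3. The lines did not overlap, with a mean difference of 0.43 and pair differences of 0.28, 0.51 and 0.50 (exact permutation p = 0.1, adjusted 0.133).

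The ratio of zeb2a to zeb2b was lower in ZMELR1 by 1.92 on the log2 scale, from a mean of 11.3 ± 0.809 to 9.37 ± 1.01 (SD, n = 3 each). It was 11.4, 10.4 and 12.04 in ZMEL1 replicates 1 to 3, against 9.53, 8.30 and 10.3 in ZMELR1 replicates 1 to 3, without overlap (exact permutation p = 0.1, adjusted 0.133). This ratio rests on the 3, 10 and 3 counts of zeb2b in ZMEL1, a gene that passed the filter through ZMELR1 alone. Its shift is therefore a description, and reads shared with zeb2a leave it uncertain. For snai2 over snai1a and snai1b the means were -1.97 ± 0.814 and -2.87 ± 0.342 (SD, n = 3 each), and the lines overlapped (exact permutation p = 0.3). All 3 pairs of this last ratio had the same sign, at -1.40, -0.89 and -0.40 in replicates 1, 2 and 3.

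**Figure D4:**
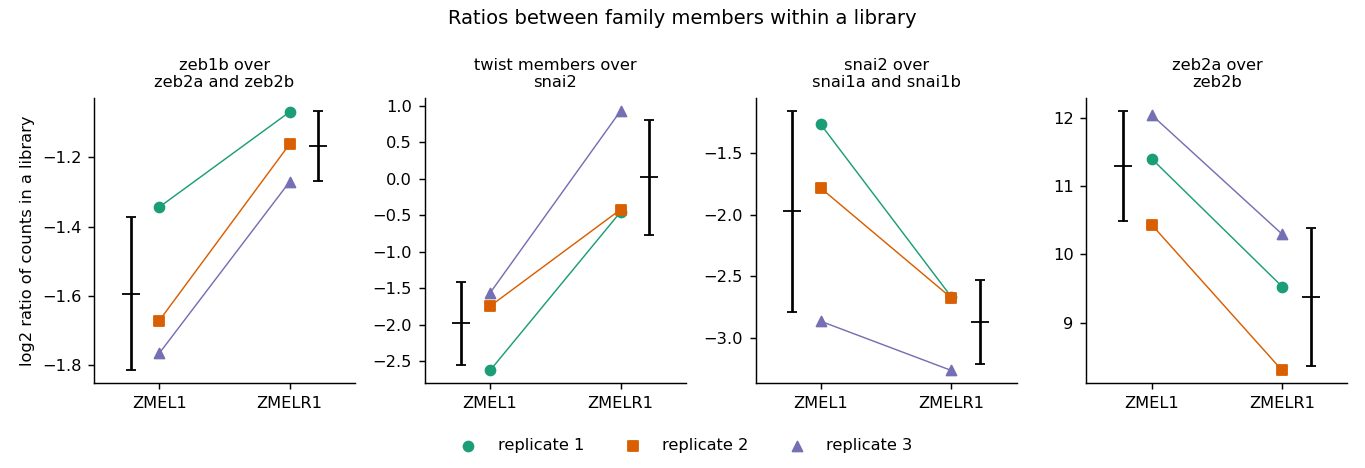
Log2 ratios of counts between members within each library (vertical axes, a range of its own in each panel), for ZMEL1 and ZMELR1. Colored points are libraries, lines join the same replicate number, and black marks are the mean with 1 SD. Every pair rises for the first 2 ratios and falls for the last 2, and the lines overlap only for snai2 over snai1a and snai1b.

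Twist proteins bind DNA together with E proteins, and Id proteins sequester the latter. Of 9 such genes tested, tcf12, an E protein gene, rose from 278 ± 8.44 to 491 ± 82.6 CPM (SD, n = 3 each), or by a log2 fold change of 0.82 (SE 0.177, edgeR's adjusted p = 0.0415), and 8 did not pass. The call of tcf12 was lost as any library was left out (edgeR's adjusted p = 0.0564 to 0.143). With the block tcf12 and id2a rose and id4 and tcf4 fell, against 24.9% of all genes tested. For this and each list below, 6.29% of all genes tested passed without the block (3.62% higher and 2.68% lower). The median log2 fold change of these genes was 0.29, against 0.02 over all genes tested. The Id gene id4 averaged 2.24 CPM in ZMEL1 and 0.433 CPM in ZMELR1 (log2 fold change -2.49, edgeR's adjusted p = 0.103, and 0.00425 with the block).

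Corepressors and chromatin enzymes that Snail and Zeb proteins recruit gave 1 call. Of 21 tested, ezh2, the catalytic subunit of Polycomb repressive complex PRC2, fell from 59.1 ± 9.12 to 33.2 ± 5.32 CPM (log2 fold change -0.83, edgeR's adjusted p = 0.0486), and 20 did not pass. Its call was lost as any library was left out (0.0687 to 0.162). With the block suz12a, lmo4a and hdac1 fell as well, against 12.0% of all genes tested. The corepressor ctbp1, a direct partner of Zeb proteins in mammals, had a log2 fold change of -0.21 (edgeR's adjusted p = 0.580), and kdm1a, a histone demethylase that binds the Snail repressor domain, one of 0.06 (edgeR's adjusted p = 0.845). The median of the list was -0.10.

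Of 14 genes whose products set the stability of Snail and Twist proteins, lats2, a Hippo pathway kinase that phosphorylates SNAI1 in human cells, rose from 66.8 ± 6.52 to 122 ± 1.23 CPM, or by a log2 fold change of 0.87 (edgeR's adjusted p = 0.0176). Its call was lost without each library except ZMELR1 replicate 3 (edgeR's adjusted p up to 0.0852). The other 13 did not pass, and the median was 0.28. With the block 2 of the 14 rose, lats2 among them, and 2 fell, against 12.9% and 12.0% of all genes tested. Of 23 genes of the signals that induce these factors, tgfb1b, a TGF-beta ligand, fell from 110 ± 29.9 to 48.9 ± 4.28 CPM (log2 fold change -1.17, edgeR's adjusted p = 0.0270) and 22 did not pass, with a median of 0.45. The call of tgfb1b did not hold without ZMEL1 replicate 1 or 3 or ZMELR1 replicate 1 or 2 (edgeR's adjusted p up to 0.0974). With the block smad3b, smad7, stat3 and notch1b rose, and tgfb1b and tgfb2 fell, against 12.9% and 12.0% of all genes tested.

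Epithelial genes, which these factors are known to repress, included more lower than higher calls. Of 27 tested, st14a, oclna, krt4 and cldn7b fell, spint1a rose (a protease inhibitor gene at 0.0494 and 0.194 CPM, with a call lost as any library was left out, edgeR's adjusted p = 0.0585 to 0.141) and 22 did not pass, with a median log2 fold change of -0.37. With the block 9 fell and 3 rose, against 12.0% and 12.9% of all genes tested. The genes st14a, oclna and cldn7b passed the filter through the ZMEL1 libraries alone, with at most 12, 2 and 4 counts in a ZMELR1 library. At a mean of 0.0494 CPM in ZMEL1, spint1a passed it through the ZMELR1 libraries alone. The count of calls is therefore a description. With at least 10 counts in every library, 1 gene of the list fell and 0 rose. The occludin gene oclna, a tight junction component, went from 0.254 ± 0.0724 to 0.0270 ± 0.00640 CPM (log2 fold change -3.17, edgeR's adjusted p = 0.00634), and the claudin gene cldn7b from 0.549 ± 0.423 to 0.0343 ± 0.00964 CPM (-3.85, edgeR's adjusted p = 0.0248). The keratin gene krt4 went from 6.74 ± 1.37 to 1.53 ± 0.389 CPM (-2.13, edgeR's adjusted p = 0.00980). The membrane protease gene st14a went from 10.49 ± 1.33 to 0.117 ± 0.0167 CPM (-6.43, edgeR's adjusted p = 0.000306) and fell with every library left out (edgeR's adjusted p up to 0.00434), while oclna lost its call without ZMELR1 replicate 2 (0.0551), krt4 without ZMELR1 replicate 1 (0.0511), and cldn7b without ZMEL1 replicate 1 and each ZMELR1 replicate (up to 0.107).

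The best known target of the 3 families, cdh1, encoding E-cadherin, did not pass with all libraries, and its call depended on whether ZMELR1 replicate 3 was included. It stood at 9.80 ± 4.21 CPM (SD, n = 3) in ZMEL1 and 7.09 ± 8.07 CPM (SD, n = 3) in ZMELR1, with a log2 fold change of -0.48 (SE 0.766, edgeR's adjusted p = 0.733, and 0.117 with the block). The libraries read 7.59, 7.16 and 14.7 CPM in ZMEL1, and 2.51, 2.33 and 16.4 CPM in ZMELR1, each from replicate 1 to 3. Replicate 3 was the highest library of both lines, and in ZMELR1 it alone lay above ZMEL1. Without ZMELR1 replicate 3 the log2 fold change of cdh1 was -2.01 and the gene fell (edgeR's adjusted p = 0.0337), and without replicate 3 of both lines it was -1.64 (edgeR's adjusted p = 0.0270). Left out in turn, the other 5 libraries gave -0.67 to -0.063, without a call. The epithelial adhesion gene epcam was near 0 in both lines, with at most 5 counts in a library, and was not tested. The summed level of the epithelial list, most of it from the keratin gene krt8, overlapped between the lines (2567 to 3692 CPM in ZMEL1 and 3325 to 4444 in ZMELR1).

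Mesenchymal genes moved both ways. Of 28 tested, vim and col6a1 rose, tnc and mmp9 fell and 24 did not pass, with a median of 0.05. With the block 5 rose and 9 fell, against 12.9% and 12.0% of all genes tested. The summed level of the list was lower in ZMELR1 without overlap, at 1288 to 1719 CPM in ZMEL1 and 799 to 1201 CPM in ZMELR1. Such a sum weighs the genes of highest level most. The intermediate filament gene vim, encoding vimentin, rose from 3.11 ± 1.39 to 26.5 ± 6.44 CPM (SD, n = 3 each), or by a log2 fold change of 3.09 (SE 0.377, edgeR's adjusted p = 0.00605), and it stayed called whichever library was omitted (edgeR's adjusted p up to 0.0361). The matrix gene tnc fell from 31.5 ± 10.3 to 4.64 ± 2.14 CPM (log2 fold change -2.76, edgeR's adjusted p = 0.00980), also with every library left out. The gelatinase gene mmp9 fell from 39.5 ± 9.22 to 4.73 ± 4.52 CPM (-3.08, edgeR's adjusted p = 0.0383). The collagen gene col6a1, at 0.0694 CPM in ZMEL1 and 0.311 CPM in ZMELR1 on average, rose by 2.11 on the log2 scale (edgeR's adjusted p = 0.0194). Its counts were 3, 5 and 6 in ZMEL1 and 17, 27 and 14 in ZMELR1. It passed the filter through the ZMELR1 libraries alone, so its rise is a description. With a library left out, the calls of mmp9 and col6a1 held only without ZMELR1 replicate 3 (edgeR's adjusted p otherwise up to 0.101 and 0.0892). For cdh2, encoding N-cadherin, mean CPM was 24.8 ± 7.93 and 27.8 ± 8.23 (log2 fold change 0.17, edgeR's adjusted p = 0.771), and the sign turned without ZMEL1 replicate 3 or ZMELR1 replicate 2.

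Melanocyte genes stood mostly higher in ZMELR1, beside the higher zeb1b. Of 13 tested, slc24a5, kita and tyrp1b rose, oca2 fell and 9 did not pass, with a median of 1.06. With the block 10 rose and 1 fell, against 12.9% and 12.0% of all genes tested. The log2 fold changes were 3.96 for the pigment organelle exchanger slc24a5, 1.06 for the receptor kita, 1.98 for the melanin enzyme tyrp1b and -2.45 for the melanosome protein oca2 (edgeR's adjusted p = 0.0120, 0.0350, 0.0417 and 0.0176). Each of these calls was lost without at least 2 of the 6 libraries (edgeR's adjusted p up to 0.0552, 0.133, 0.107 and 0.0793). For mitfa mean CPM was 519 ± 82.9 and 891 ± 58.6 (log2 fold change 0.78, edgeR's adjusted p = 0.0590, and 0.0196 with the block), and these counts cannot separate the mutant locus from the minigene.

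Of 12 neural crest specifiers tested, tfap2c, tfap2e and sox9b rose, 0 fell and 9 did not pass, with a median of 0.66. With the block edgeR called 9 higher, against 12.9% of all genes tested. The AP-2 factor genes tfap2c and tfap2e had log2 fold changes of 1.17 and 1.33 (edgeR's adjusted p = 0.0189 and 0.0489), and sox9b one of 1.27 (edgeR's adjusted p = 0.0434), with calls lost without at least 3 of the 6 libraries each. The crest factor sox10 averaged 417 ± 29.3 CPM in ZMEL1 and 587 ± 26.3 CPM in ZMELR1 (log2 fold change 0.49, edgeR's adjusted p = 0.113, and 0.0277 with the block). The relatives of the 3 families were nearly silent: of 10 with a row, 5 had 0 counts in every library, ferd3l had at most 4 counts and 3 others at most 3, and zeb1a alone was tested.

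**Figure D5:**
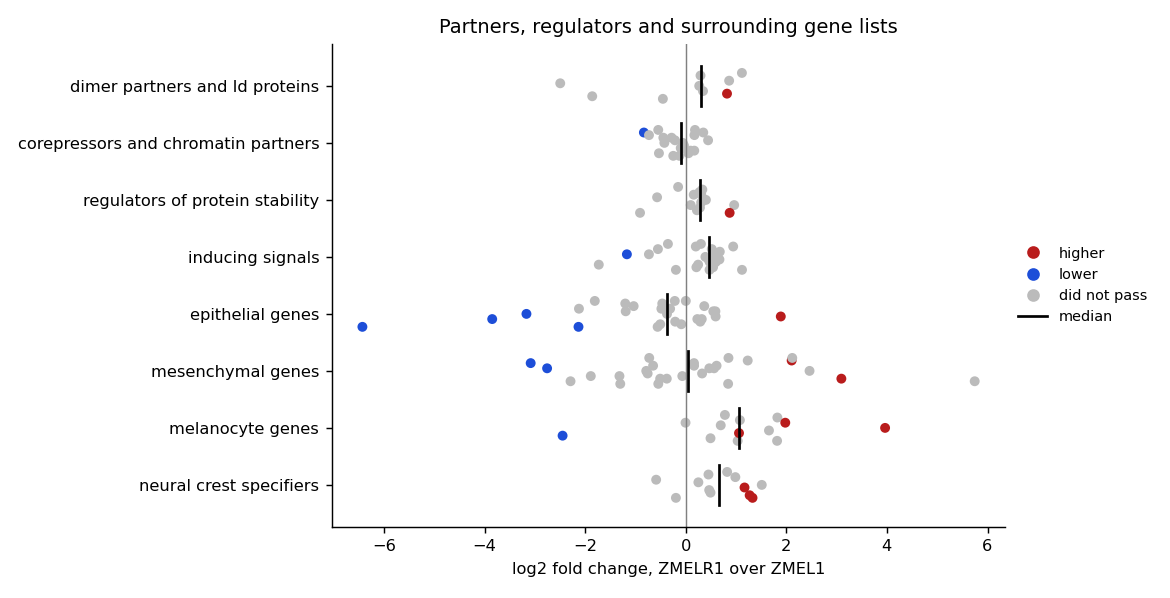
Log2 fold change of ZMELR1 over ZMEL1 (horizontal axis) for the tested genes of 8 lists, 1 point a gene, spread vertically only for legibility, with the median of each list as a black bar. Red and blue points rose and fell at an edgeR adjusted p under 0.05. The medians run from -0.37 for the epithelial genes to 1.06 for the melanocyte genes, against 0.02 over all genes tested.

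Since Twist and Zeb genes are also expressed by fibroblasts, markers of other cell types were read beside them. In bulk samples more cells of a type and more RNA per cell cannot be told apart. The summed level of 9 fibroblast markers overlapped between the lines, at 79 to 108 CPM in ZMEL1 and 57.2 to 101 CPM in ZMELR1, and edgeR called 0 of the 7 tested. Of these 4 had an unadjusted p under 0.05, DESeq2 called 3, and with the block 2 rose and 2 fell. The shares over all genes tested were 24.3%, 14.2% and 24.9%. The defining marker lum had at most 6 counts in a library, and the others moved both ways. In ZMEL1 and ZMELR1 dcn averaged 15.4 and 6.86 CPM and col1a1a 0.270 and 0.107 CPM, while col1a2 averaged 3.22 and 5.81 CPM, pdgfra 2.83 and 3.62 CPM and postnb 70.9 and 67.5 CPM. With the block dcn fell and col1a2 rose (edgeR's adjusted p = 0.00951 and 0.0364). Leukocyte markers summed to 8.69 to 10.1 and 12.4 to 29.9 CPM, with 0 of 6 called by edgeR with or without the block, 2 at an unadjusted p under 0.05 and 1 called by DESeq2. The 8 endothelial markers summed to 30.7 to 97.1 CPM in ZMEL1 and 4.18 to 7.60 CPM in ZMELR1, where vwf (also with every library left out) and fli1a (lost without 4 of the 6 libraries) fell, while tek, the last one tested, averaged 2.58 and 4.24 CPM (edgeR's adjusted p = 0.245). The sum was mostly vwf in ZMEL1. The other 5, cdh5, tie1, kdrl, etv2 and fli1b, had at most 9 counts in a library, and all but cdh5 averaged higher in ZMELR1. Of the endothelial markers tested, vwf and fli1a thus fell, as twist2 did, and tek did not pass, while the other 5 had too few counts to be tested. The part of such cells in the fall of twist2 was not tested. Among muscle markers myod1 fell and 4 of 5 did not pass. Among keratinocyte markers krt4, also in the epithelial list, fell and 4 of 5 did not pass. In each of these lists 3 genes had an unadjusted p under 0.05, and with the block 1 rose and 2 fell. DESeq2 called 0 muscle and 2 keratinocyte markers. The log2 fold change of krt5 was -2.12 (edgeR's adjusted p = 0.0536, and 0.00929 with the block). The counts of myod1 were 12, 16 and 11 in ZMEL1 and 3, 4 and 1 in ZMELR1, and it passed the filter through ZMEL1 alone. As libraries were left out, its call held only without ZMEL1 replicate 3 (edgeR's adjusted p otherwise up to 0.0974). DESeq2 did not call it (adjusted p = 0.0501).

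The genes whose pattern over the 6 libraries was most like that of a member were found by the root mean square difference of log2 CPM, after the mean of each gene was removed, among 10380 genes whose log2 CPM averaged 1 or more. For zeb1b these were nisch and arhgef12b (0.05 and 0.07 on the log2 scale). They were picked for this likeness, so their own calls (edgeR's adjusted p = 0.0317 and 0.0241) follow from the choice. For zeb2a the nearest genes were brd1a and rev3l (0.04 and 0.04), and for snai1a vwa1 and klhl12 (0.04 and 0.06). The nearest to twist1a was loxl1, a collagen crosslinking enzyme gene (0.17), followed by ece1 (0.29). Those of snai2, fam43b and f13a1b, were 0.21 and 0.23 away. For twist2 (ndp and acsl3a, 0.36 and 0.38) and zeb2b (kcnh5a and tenm1, 0.38 and 0.40) no gene came as near. Both members had few counts, at most 22 and 80 in a library, and the part of counting error in their distances was not tested. Nearest to twist1b were hapln3 and hlfa (0.16 and 0.17), and to twist3 FNIP2 and papl (0.13 and 0.14).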

How the data were processed

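RNA-seq of 6 libraries was used. Alignment by the authors used TopHat2 and the Zv9 genome, followed by HTSeq counting per Ensembl gene, and the deposited values are these raw counts, whole numbers without normalization. The strand setting and the counting mode are not given in the sources used here. No column was left out. Total counts were 42591832 to 83741911 per library. Replicates of a line differed far beyond counting error (chi-square per degree of freedom 185 to 329).

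Counts were analysed in R 4.3.3 with edgeR 4.0.16 (filterByExpr with a least count of 10 and a least total of 15, TMM factors 0.935 to 1.085, the newer quasi-likelihood fit, Benjamini-Hochberg adjustment over 16589 genes). The paper names limma in its methods and DESeq2 in its results. Log2 CPM used a prior count of 2, and ratios added 0.5 to each count. Deviations from the line means correlated at 0.509 to 0.588 between libraries of the same replicate number and at -0.504 to -0.0285 otherwise. Each line was centered on its own mean, so the negative values follow in part from the positive ones. Libraries of the same number thus deviated together, and the number was used as a block. The paper calls the replicates independent and does not state what a number shares. Alternatives were DESeq2 1.42.0, limma-voom (limma 3.58.1), RLE factors, library size only, 2 other filters, the replicate block, each library left out, replicate 3 of both lines left out and, chosen after seeing the data, edgeR's older fit. Tests were tried on simulated counts. The members and the 15 gene lists were chosen with earlier results of these data known. The text names every member, 7 fixed genes (zeb1a, mitfa, sox10, cdh1, cdh2, epcam and vim), up to 4 called genes of smallest p per list, and the 2 nearest patterns per member. Other genes named, as values of markers or as changes with the block, were chosen after their values were seen. All 10 members matched RefSeq symbols of the GRCz12tu assembly, whose coordinates were not used. Only 8 matched the Ensembl gene names at hand, and zeb1b and zeb2b did not. Sequences were not analysed here.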

Additional observations from a re-analysis of the deposited data

How the results depend on the processing

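Of 132 values of the tested members under the alternatives, 110 kept their direction and side of the threshold. The 12 values in which a call was lost were all of zeb1b and twist2, the members called. In 9 values a call was gained, and 1 reversed its sign. The pooled number therefore does not describe how firm these calls are. Members higher in ZMELR1 numbered 1 with edgeR, 4 with DESeq2 and 5 with the replicate block, and 0 to 2 as libraries were left out. Members lower numbered 1, but 0 with limma-voom, 0 with edgeR's older fit and 0 with at least 10 counts in every library, a filter that removes twist2, and 0 to 1 as libraries were left out. Over the whole table, 600 genes were higher and 444 lower. These were 1263 and 1094 with DESeq2, 2143 and 1984 with the block, 294 and 169 with at least 10 counts in every library, and 172 to 661 and 113 to 488 as libraries were left out. Over the fixed lists, 11 were higher and 12 lower. These were 25 and 29 with DESeq2, 37 and 42 with the block, and 5 and 5 under the filter of 10 counts per library, 7 higher with all genes of 1 count in total, and 1 to 15 and 4 to 15 as libraries were left out. The log2 differences of the ratios kept their sign throughout, at 1.54 to 2.23 (Twist over snai2), 0.34 to 0.55 (zeb1b over zeb2), -2.38 to -1.38 (zeb2a over zeb2b) and -1.34 to -0.54 (snai2 over snai1). Signs reversed without ZMEL1 replicate 1 for snai2 (0.26), zeb1a (-0.16), fam43b (0.37) and f13a1b (0.46), without ZMEL1 replicate 3 for cdh2 (-0.072), without ZMELR1 replicate 2 for cdh2 (-0.093), fam43b (0.089) and f13a1b (0.050), and with limma-voom for fam43b (0.0034). As libraries were left out, log2 fold changes ran from -0.68 to 0.26 (snai2), -0.093 to 0.41 (cdh2), -0.16 to 0.46 (zeb1a), -0.43 to 0.37 (fam43b) and -0.47 to 0.46 (f13a1b), and 0 of these values passed the threshold. The cause of these changes was not tested. Other than the calls given with the report, the block changed no call of a member. At the depth of these libraries snai1b, zeb2b and twist2 are limited by counts of 0 to 80.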
